A study of Mus musculus with 18 samples.

Results

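Acsm1, Acsm2, Acsm3, Acsm5, Glyat and Keg1, the genes of the kidney's medium-chain acyl-CoA synthetases and glycine N-acyltransferases, were followed in bulk RNA-sequencing of the right kidney of male mice. They were taken from the expression table by gene symbol, and all 6 were found among the 32675 genes listed there. They were selected on their levels in these same Ctrl, PBS and FLX mice, so the group differences of the 6 genes are given as a description, without a p-value. All mice were wild-type C57BL/6 males with 6 weeks as the age in the labels, and 3 groups of 6 were sequenced, with 1 library a mouse. Ctrl mice were not defeated and were handled daily. PBS mice went through chronic social defeat stress (CSDS), in which a mouse is put daily with an aggressive CD-1 male, and received phosphate-buffered saline intraperitoneally. FLX mice went through the same defeats and received fluoxetine, a selective serotonin reuptake inhibitor. The sources used here do not say whether Ctrl mice were injected as well. Each mouse is named below by its group and replicate number (PBS 6).

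Acsm genes encode mitochondrial enzymes that join coenzyme A to medium-chain fatty acids and to small aromatic acids such as benzoate. Glycine N-acyltransferase, the product of Glyat, then moves the acyl group onto glycine, which gives acylglycines such as hippurate that are secreted into the urine. Proximal tubule cells of the kidney and hepatocytes of the liver are the main places of this conjugation, and Keg1 encodes a kidney-expressed member of the same acyltransferase family.

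One PBS mouse was deleted by the study for its high inflammatory genes. Which mouse it was is not stated, and PBS 6 was taken to be it, since it had the highest S100a8, S100a9 and Lcn2 of the PBS mice. Its S100a8 was 22.1 FPKM (fragments scaled to transcript length and to the mapped fragments of the library, a level per length), against 1.82 to 7.65 in the other 5. The comparisons below rest on 17 mice, and the values with PBS 6 are given beside them. Total counts were 72149987 to 79061296 in 14 mice and 48928823 to 52073640 in FLX 3 to 6, so that within FLX depth and mouse cannot be told apart. All 9 proximal tubule markers had a mean of at least 1 FPKM over the 18 mice, and their summed level was 2151 to 2460 FPKM in Ctrl, 2048 to 2401 in PBS and 2133 to 2538 in FLX. In PBS 6 that sum was 1234 FPKM. Slc27a2, 1 of these 9 markers, is also counted below in the list of other acyl-CoA synthetases. It averaged 738 FPKM in Ctrl, 682 in the 5 PBS mice and 721 in FLX. In bulk tissue, fewer cells of a type and less RNA per cell cannot be told apart.

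On chromosome 7 (GRCm38) 4 of the 6 genes lay in one row, all on the + strand, within 268051 bases. In order these were Acsm5 (ENSMUSG00000030972, chr7:119519463-119545551), Acsm2 (ENSMUSG00000030945, chr7:119554340-119600690), Acsm1 (ENSMUSG00000033533, chr7:119607026-119662515) and Acsm3 (ENSMUSG00000030935, chr7:119760923-119787513). Acsm4 lay between Acsm1 and Acsm3. Glyat (ENSMUSG00000063683, chr19:12633308-12653911) and Keg1 (ENSMUSG00000024694, chr19:12695786-12719902) lay on chromosome 19, also on the + strand, in a span of 86595 bases. Olfr1442, Olfr1443 and Gm49772 were listed between them. The coding sequences of any pair of the Acsm genes, Acsm4 included, were 62.0% to 66.9% identical in GENCODE M21, with a longest shared run of 15 to 26 bases, while Glyat and Keg1 were 73.1% identical with a longest shared run of 35 bases. The sources used here do not state how reads that match more than 1 gene were counted.

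The 250 bases before the start site, as in RefSeq on GRCm38.p6, are shown for Acsm3 and Glyat, whose levels were most alike over the mice, and for the first listed start of Acsm2 and for Keg1, a synthetase and an acyltransferase with smaller or overlapping differences. All are written 5′ to 3′ on the + strand, from chr7:119760673-119760922 for Acsm3, chr19:12633058-12633307 for Glyat, chr7:119554090-119554339 for Acsm2 and chr19:12695540-12695789 for Keg1. Capitals mark motif matches found on either strand. In Acsm2 these are ATTAAC, the reverse complement of GTTAAT, and TATAAA, and in Keg1 both are matches to TTCNNNGAA, and no match overlaps another.
Acsm3: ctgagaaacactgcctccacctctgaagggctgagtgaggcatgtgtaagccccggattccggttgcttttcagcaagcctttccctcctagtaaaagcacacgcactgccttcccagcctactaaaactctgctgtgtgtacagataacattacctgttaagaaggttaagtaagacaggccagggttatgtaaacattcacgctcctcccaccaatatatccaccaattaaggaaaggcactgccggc
Glyat: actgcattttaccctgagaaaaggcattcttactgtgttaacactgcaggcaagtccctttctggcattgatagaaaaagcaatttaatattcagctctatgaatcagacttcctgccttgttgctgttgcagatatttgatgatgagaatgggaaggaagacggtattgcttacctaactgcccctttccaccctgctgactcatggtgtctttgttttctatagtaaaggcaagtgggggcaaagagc
Acsm2: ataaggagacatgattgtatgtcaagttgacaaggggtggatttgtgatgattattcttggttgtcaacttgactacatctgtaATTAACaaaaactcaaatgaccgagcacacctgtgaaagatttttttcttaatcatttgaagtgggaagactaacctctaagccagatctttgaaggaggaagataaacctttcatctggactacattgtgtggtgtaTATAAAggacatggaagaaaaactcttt
Keg1: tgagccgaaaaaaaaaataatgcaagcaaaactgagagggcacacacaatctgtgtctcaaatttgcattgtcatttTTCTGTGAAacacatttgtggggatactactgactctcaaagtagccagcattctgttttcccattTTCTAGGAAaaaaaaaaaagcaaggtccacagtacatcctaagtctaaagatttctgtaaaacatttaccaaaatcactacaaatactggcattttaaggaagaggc
In all, 6 motifs were searched in these windows and in all 32851 promoters of the same length. TATAAA, the TATA box, was in 12.4% of all promoters and stood 28 bases before the start of Acsm2. GTTAAT, a half-site of the tubule and liver factor HNF1, was in 6.43% and lay in Acsm2. TTCNNNGAA, the site form of STAT factors, was in 7.02% and occurred at 2 places in Keg1. AGGTCA, a nuclear receptor half-site, was in 14% and of the 6 genes only in Acsm1, whose window is not printed since the RefSeq start lies 10786 bases inside the listed gene. CAAAGTCCA, a form of the HNF4A site, was in 0.384% and the palindrome of steroid receptors in 0.00913%, and neither was in any of the 6 genes. The windows of Acsm3, Glyat and Acsm5 held no match, which says only that these letters were not in these bases.

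In Ctrl kidneys the order of levels was Acsm2, Keg1, Acsm3, Glyat, Acsm1 and Acsm5. The mean ± SD over 6 mice was 444 ± 59.4 FPKM for Acsm2, 289 ± 28.1 for Keg1 and 147 ± 17 for Acsm3. It was 103 ± 1.73 FPKM for Glyat, 76.0 ± 11.3 for Acsm1 and 26.4 ± 3.01 for Acsm5. No range of Ctrl mice overlapped that of the next gene in this order. Acsm2 ranked 80th by its Ctrl mean among all 32675 genes and Acsm5 ranked 1664th, so all 6 genes were among the well expressed genes of the kidney. In PBS kidneys the order changed in 1 place, with Acsm3 between Acsm1 and Acsm5, and there the ranges of Glyat and Acsm1, of Acsm1 and Acsm3 and of Acsm3 and Acsm5 overlapped. In FLX kidneys the order was that of Ctrl, and of its neighbours Acsm3 and Glyat overlapped.

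**Figure D1:**
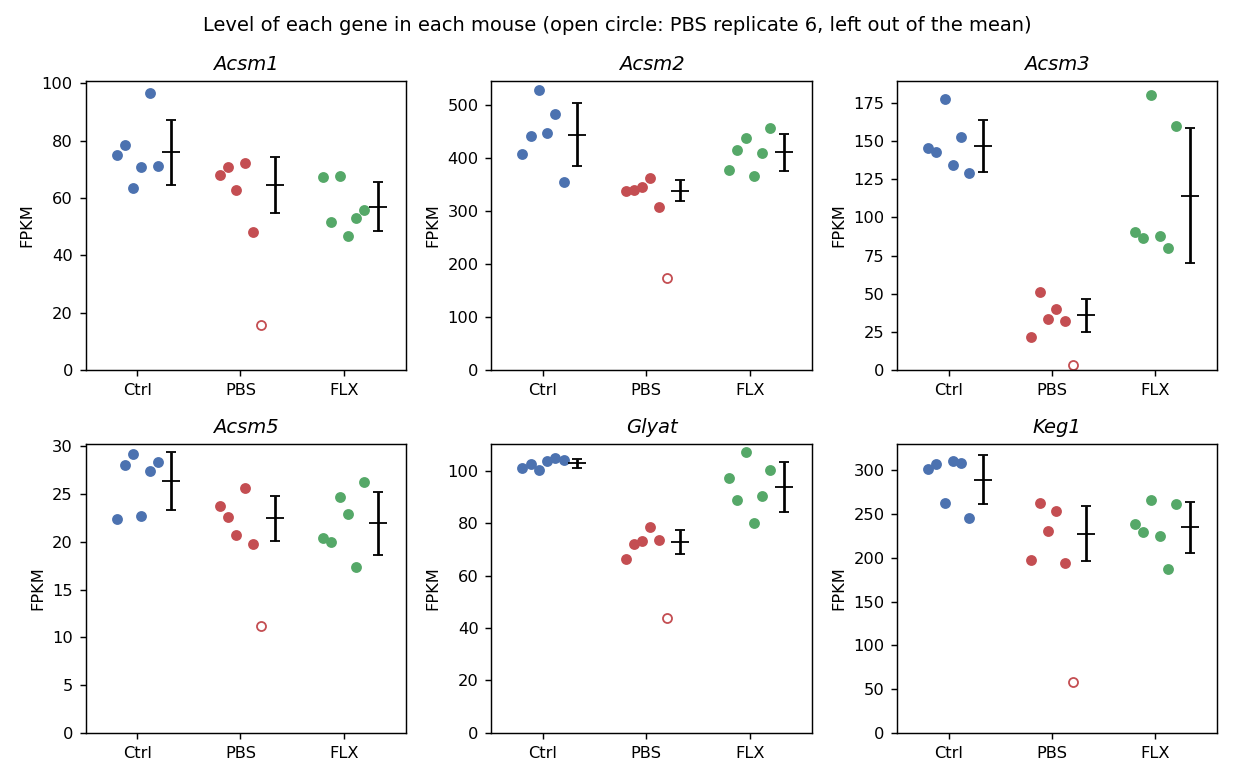
Level of the 6 genes in each mouse, in FPKM, with a point for each mouse and a black mean ± SD beside each group. The open circle is PBS 6, which is in no mean and is the lowest PBS mouse for every gene, and the PBS points of Acsm3 and Glyat lie below all Ctrl and all FLX points. For Glyat the gap between PBS and FLX is narrow, from 78.6 to 80.2 FPKM.

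Acsm3 had by far the widest difference between the groups. Its lowest, median and highest Ctrl values were 129, 144 and 177 FPKM. The 5 PBS mice were at 21.6, 51.5, 33.5, 40.4 and 32.5 FPKM, and PBS 6 was at 3.28. The FLX values ran from 79.8 to 180 with a median of 89.0 FPKM. Thus every PBS mouse was below every Ctrl and every FLX mouse, while FLX split into 4 mice between 79.8 and 90.3, below the whole Ctrl range, and FLX 6 and 3 at 160 and 180. Acsm3 was lower in PBS than in Ctrl, at a log2 fold change of -2.02 ± 0.24 (SE, edgeR), or 0.246 times the Ctrl level, and higher in FLX than in PBS by 1.58 ± 0.24, or 2.99-fold. FLX versus Ctrl gave -0.44 ± 0.22. Ranked by the size of the log2 fold change, Acsm3 was 302nd of 20251 genes in PBS versus Ctrl and 370th in FLX versus PBS. With FLX 1 and 2 only, the FLX mice of full depth, FLX versus PBS was 1.25, and with all 6 PBS mice it was 1.82, with -2.26 for PBS versus Ctrl.

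Glyat, the acyltransferase that completes the conjugation, followed the same order in a narrower range. Ctrl mice lay between 100 and 105 FPKM with a median of 103. The PBS mice were at 66.2, 72.2, 73.2, 78.6 and 73.6 FPKM, and PBS 6 was at 43.9. FLX mice ran from 80.2 to 107 with a median of 93.7 FPKM. In FPKM no PBS mouse reached a Ctrl or an FLX mouse here too, but the gap to FLX was narrow, from 78.6 to 80.2. Over all genes the median log2 fold change of FLX versus PBS was 0.076 on log2(FPKM + 0.1) and -0.0027 in edgeR. Whether PBS and FLX separate for Glyat under the scaling of edgeR was not tested. Of the 6 FLX mice 5 were below the Ctrl range and FLX 3 was above it. PBS versus Ctrl gave a log2 fold change of -0.49 ± 0.086, FLX versus PBS 0.28 ± 0.086 and FLX versus Ctrl -0.21 ± 0.082. Over all 6 PBS mice the first of these became -0.60 and the second 0.38.

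**Figure D2:**
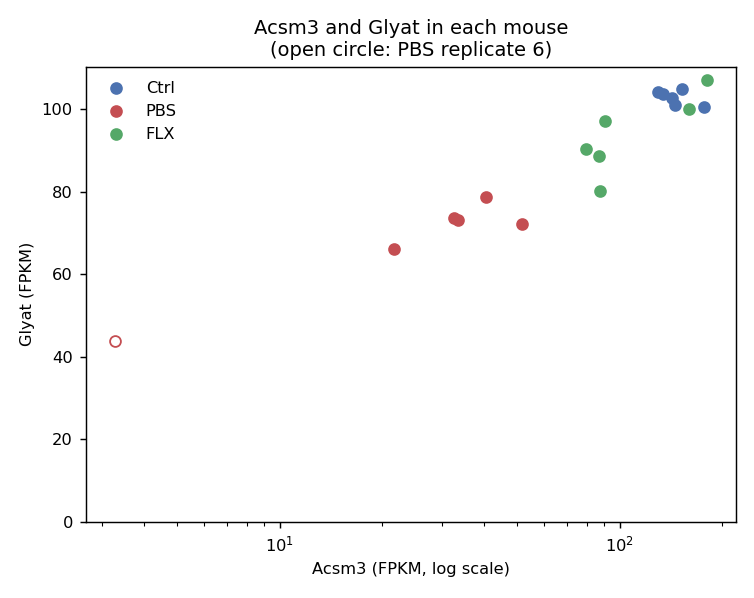
Acsm3 (x axis, FPKM, log scale) against Glyat (y axis, FPKM), with a point for each of the 18 mice coloured by group. The PBS mice lie at the lower left, 4 FLX mice between 79.8 and 90.3 FPKM of Acsm3 lie in the middle, and the Ctrl mice with FLX 3 and 6 lie at the upper right.

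Acsm2, the most abundant of the synthetases, differed less. Its Ctrl values were 356, 444 and 528 FPKM at the lowest, median and highest mouse. The PBS mice were at 339, 340, 346, 362 and 307 FPKM, with PBS 6 at 174. FLX mice had 366, 413 and 456 FPKM. In FPKM, 4 of the 5 PBS mice were below the Ctrl range, all 6 FLX mice were above every PBS mouse and all 6 were inside the Ctrl range. The lowest FLX mouse, at 366 FPKM, was close to the highest PBS mouse, at 362. As said for Glyat, the all-gene median of FLX versus PBS was 0.076 on log2(FPKM + 0.1) and -0.0027 in edgeR. Whether FLX and PBS separate for Acsm2 under the scaling of edgeR was not tested. On the log2 scale the difference was -0.38 ± 0.099 for PBS versus Ctrl, 0.18 ± 0.099 for FLX versus PBS and -0.20 ± 0.094 for FLX versus Ctrl. With all 6 PBS mice the first became -0.51 and the second 0.31.

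Acsm1, a butyrate-preferring synthetase, was lowest in FLX. Ctrl mice had 63.5, 73.1 and 96.7 FPKM at the lowest, median and highest. PBS mice had 68.1, 71.0, 62.9, 72.2 and 48.1 FPKM, with 15.8 in PBS 6, and FLX mice ran from 46.8 to 67.7 with a median of 54.5. The groups overlapped in all 3 comparisons, with 4 of 6 FLX mice below the Ctrl range. Its log2 fold changes were -0.23 ± 0.15 for PBS versus Ctrl, -0.27 ± 0.15 for FLX versus PBS and -0.50 ± 0.14 for FLX versus Ctrl, and the first 2 became -0.43 and -0.072 with all 6 PBS mice.

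Acsm5, the least abundant of the 4 synthetases, also overlapped throughout. Ctrl mice lay between 22.3 and 29.3 FPKM with a median of 27.7. PBS mice were at 23.8, 22.6, 20.7, 25.6 and 19.7 FPKM, PBS 6 was at 11.2, and FLX mice lay between 17.3 and 26.3 with a median of 21.6. On the log2 scale PBS versus Ctrl was -0.22 ± 0.11, FLX versus PBS -0.13 ± 0.11 and FLX versus Ctrl -0.35 ± 0.11, so that both defeated groups had lower means than Ctrl. All 6 PBS mice gave -0.35 and -0.0015 for the comparisons with PBS.

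Keg1 had a lower mean than Ctrl in both defeated groups. Ctrl mice ran from 246 to 311 FPKM with a median of 304. PBS mice had 198, 263, 231, 253 and 194 FPKM, with 57.7 in PBS 6, and FLX mice ran from 187 to 266 with a median of 234. Of these, 3 of 5 PBS and 4 of 6 FLX mice were below the Ctrl range, and FLX and PBS overlapped. PBS versus Ctrl stood at -0.34 ± 0.12 on the log2 scale, FLX versus PBS at -0.049 ± 0.12 and FLX versus Ctrl at -0.39 ± 0.11. With all 6 PBS mice PBS versus Ctrl was -0.53, and the small FLX versus PBS value changed sign to 0.15.

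All 6 genes were lower in PBS than in Ctrl and all 6 were lower in FLX than in Ctrl, with a median log2 fold change of -0.36 and -0.37, where the median over all 20251 genes was -0.0078 and -0.0092. In FLX versus PBS 3 genes were higher (Acsm3, Glyat and Acsm2) and 3 lower (Acsm1, Acsm5 and Keg1), with a median of 0.068 against -0.0027 over all genes. The comparisons with Ctrl share the Ctrl mice and those with PBS share the PBS mice. At an adjusted p under 0.05 in edgeR's quasi-likelihood test, 3 of the 6 genes passed in PBS versus Ctrl (Acsm2, Acsm3 and Glyat), all of them lower, where 3.81% of all genes did and 1.67% did as lower. Acsm3 alone passed in FLX versus PBS, as higher, where 0.726% of all genes did and 0.306% did as higher, and none passed in FLX versus Ctrl, where 3.67% did. Limma also called Glyat in FLX versus PBS, with either offset, and DESeq2 called Acsm3 alone. In FLX versus Ctrl 4 were under 0.05 before adjustment, DESeq2 called 3 (Acsm1, Acsm5 and Keg1) and limma called 1 (Acsm1). Over the 27 other settings of this comparison Acsm1 passed in 7, Keg1 in 4 and Acsm5 in 1. Those of Acsm1 and Keg1 included edgeR with upper-quartile scaling. Acsm3 was the only one past the cut of the study, an absolute log2 fold change over 1 with an unadjusted p under 0.05, in PBS versus Ctrl (3.28% of all genes) and FLX versus PBS (1.9% of all genes), and in FLX versus Ctrl, where 2.24% of all genes were past it, none was. Since these differences chose the genes, nothing is read from the counts. Acsm2 passed in only 12 of the 26 other settings of PBS versus Ctrl, and dropping a single mouse ended its call when that mouse was Ctrl 1, 2, 4 or 5, PBS 1, 2, 3 or 5, or FLX 1 or 2. Acsm3 and Glyat passed in all 26, and in FLX versus PBS Acsm3 passed in 26 of 27, with the fit on FLX 1 and 2 as the exception. These settings refit mostly the same mice, in which the genes were chosen, so passing in many of them adds no support.

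**Figure D3:**
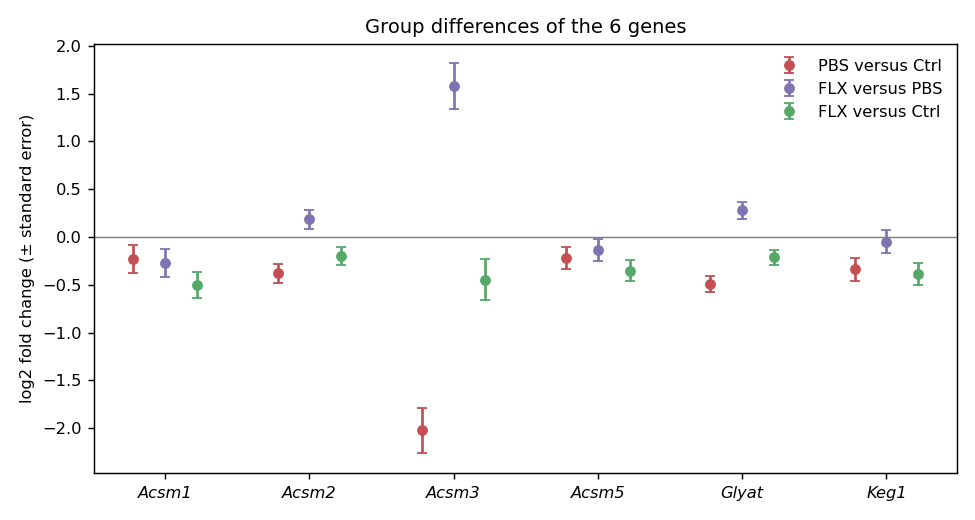
Log2 fold change (y axis) of each of the 6 genes in PBS versus Ctrl, FLX versus PBS and FLX versus Ctrl, with the standard error as bars. Acsm3 lies at -2.02, 1.58 and -0.44, while the other 5 genes lie between -0.50 and 0.28.

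With Acsm3, the make-up of the synthetase pool differed. The 4 Acsm genes summed to 693 ± 76.6 FPKM in Ctrl (SD, n = 6), 462 ± 35.5 in PBS (n = 5) and 604 ± 79.5 in FLX (n = 6), with 205 in PBS 6. Acsm3 made up 19.9% to 22.4% of that sum in the Ctrl mice, 4.78% to 10.6% in the 5 PBS mice and 14.2% to 25.4% in the FLX mice, and 1.60% in PBS 6. Acsm2 took 60.9% to 66.2% in Ctrl and 70.1% to 75.4% in PBS. Since both levels come from the same library, the ratio of Acsm3 to Acsm2 does not depend on the scaling between libraries. It was 0.333 ± 0.0242 in Ctrl, 0.106 ± 0.0314 in PBS and 0.274 ± 0.0874 in FLX, so the PBS mice differed from both other groups in this ratio without overlap. For the acyltransferases the ratio of Keg1 to Glyat was 2.82 ± 0.268 in Ctrl, 3.13 ± 0.367 in PBS and 2.51 ± 0.246 in FLX.

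**Figure D4:**
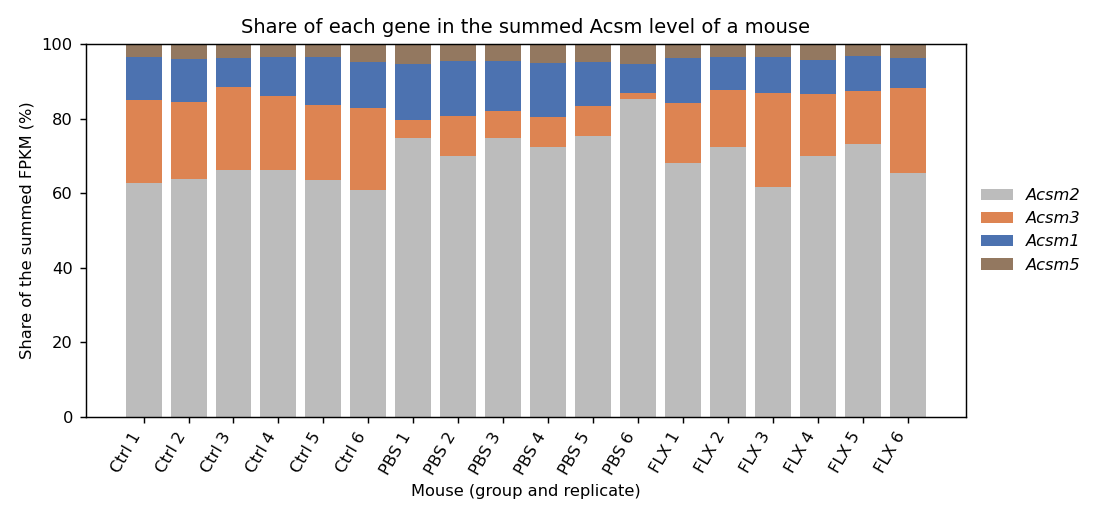
Share of Acsm2, Acsm3, Acsm1 and Acsm5 (stacked from the bottom) in the summed FPKM of the 4 synthetase genes, in percent, for each of the 18 mice. The Acsm3 band covers 4.78% to 10.6% in PBS 1 to 5 and at least 14.2% in every Ctrl and FLX mouse, and it is thinnest in PBS 6 at 1.60%.

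Among all 20251 genes, those whose level was most like that of each gene were ranked by Pearson's r of log2(FPKM + 0.1) over the 17 mice. These values describe mice of 3 groups that share a scaling, and differences between the groups can add to them. Acsm3 was most like Gm6300 (r = 0.97), followed by Glyat (0.95) and Lipo3, a lipase gene (0.94). With the group means removed, r was 0.84 for Gm6300, 0.69 for Glyat and 0.79 for Lipo3. Gm6300 averaged 25.6 FPKM in Ctrl, 2.20 in PBS and 17.5 in FLX, and its 2 highest FLX mice were replicates 3 and 6 with 32.5 and 33.9 FPKM, the same mice in which Acsm3 was highest. Glyat was most like Acsm3, Smpdl3a, a phosphodiesterase gene (0.94), and Gm6300 (0.93). Its r with Smpdl3a and Gm6300 was 0.71 and 0.60 with the group means removed.

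The other 4 genes each had other companions. Acsm2 was most like Ldhd, the D-lactate dehydrogenase (r = 0.93), Slco1a1, an organic anion transporter (0.92), and Osbp2, an oxysterol-binding protein gene (0.90). For Keg1 they were Proc, the protein C gene (0.92), Abhd14b (0.91) and Il34, a cytokine gene (0.88). Acsm5 had Plau, the urokinase gene (0.88), Car9, a carbonic anhydrase gene (0.84), and Usp28 (0.83), and Acsm1 had Pcbp4 (0.84), Tmem51 (0.81) and Gm26532 (0.81). For these companions r with the group means removed ran from 0.62 (Acsm1 with Gm26532) to 0.89 (Acsm5 with Car9). Among the 6 genes themselves r over the 17 mice, group means kept, ran from 0.26 for Acsm1 with Acsm3 to 0.95 for Acsm3 with Glyat. Acsm2 had 0.82 with Acsm3, and Acsm1 had its highest value, 0.71, with Keg1.

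Another 40 genes were listed between or within 200000 bases of the 6 genes, of which 30 could be tested. By edgeR, Dcun1d3 rose and A330040F15Rik and Gm4952 fell in PBS versus Ctrl, where 3.81% of all genes passed. In FLX versus PBS A330040F15Rik and Dtx4 rose, where 0.726% of all genes passed. Before adjustment 6 and 7 of the 30 were under 0.05. DESeq2 also called Gp2 and Gm6545 in the first comparison, and Mpeg1, Dcun1d3 and Gm4952 in the second. None of the 30 passed in FLX versus Ctrl by edgeR, where 3.67% of all genes did. There 1 was under 0.05 before adjustment, and both DESeq2 and limma called 1, Dtx4. Gm4952, another gene of the glycine N-acyltransferase family, lies directly upstream of Glyat (chr19:12599974-12628251) and had 75.4% of its coding bases in common with it. Its level was low, at 1.02 ± 0.195 FPKM in Ctrl, 0.457 ± 0.158 in PBS and 0.913 ± 0.265 in FLX, and PBS versus Ctrl was -1.15 ± 0.26 (edgeR adjusted p = 0.0189). FLX versus PBS, at 0.91 ± 0.26, did not pass in edgeR (adjusted p = 0.127), while DESeq2 called it. With the replicate number as a block in edgeR, the PBS versus Ctrl call ended (adjusted p = 0.0556). All 6 PBS mice together gave -1.18 (adjusted p = 0.0118) for PBS versus Ctrl and 0.94 (adjusted p = 0.0863) for FLX versus PBS. A330040F15Rik, a transcript listed as antisense upstream of Gm4952, was -1.0 ± 0.22 in PBS versus Ctrl (edgeR adjusted p = 0.0145) and 1.01 ± 0.22 in FLX versus PBS (adjusted p = 0.0368). With all 6 PBS mice these became -1.18 (adjusted p = 0.019) and 1.18 (adjusted p = 0.0509), and the second call also ended on dropping any 1 of the 5 PBS mice, Ctrl 2, or FLX 1, 3, 5 or 6.

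Of the tested genes around the Acsm row on chromosome 7, edgeR on the 17 mice called Dcun1d3 and no other, in any comparison. Gp2 was 0.77 ± 0.24 in PBS versus Ctrl (adjusted p = 0.0841), and edgeR called it there without PBS 3 or PBS 5. In the same comparison Gm19963 passed without PBS 4 and Gm45792 without Ctrl 3. Gm45792 also passed in FLX versus Ctrl without Ctrl 3. Acsm4 was near 0, with 3 counts in Ctrl 6, 6 counts in PBS 3 and none in the other mice, and was not tested. Gm19950, which overlaps Acsm1 on the opposite strand, had 36.8 ± 3.85 FPKM in Ctrl, 37.6 ± 4.25 in PBS, 36.8 ± 5.13 in FLX and 35.3 in PBS 6, and PBS versus Ctrl was 0.041 ± 0.11 on the log2 scale (edgeR adjusted p = 0.887). Eri2, which overlaps Acsm3 on the opposite strand, was -0.56 ± 0.30 in PBS versus Ctrl (adjusted p = 0.347) and 0.43 ± 0.30 in FLX versus PBS (adjusted p = 0.657). The libraries kept strand, but the sources used here do not say whether counting used it, and without it the reads of a gene and its antisense partner cannot be told apart. Dcun1d3, an adaptor gene of protein neddylation, rose by 0.67 ± 0.16 in PBS versus Ctrl (adjusted p = 0.0222), with 0.56 (adjusted p = 0.0877) over all 6 PBS mice, and dropping Ctrl 1 or 2 or PBS 1 or 4 ended this call. In FLX versus PBS Dcun1d3 was -0.55 ± 0.16 (edgeR adjusted p = 0.125). Dtx4, a ubiquitin ligase gene on chromosome 19, rose by 0.73 ± 0.16 in FLX versus PBS (adjusted p = 0.038) and passed in 9 of 27 other settings, with 0.31 (adjusted p = 0.706) over all 6 PBS mice. Of the fits without 1 mouse only those without Ctrl 3, Ctrl 6, PBS 3 or FLX 3 kept the Dtx4 call.

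Genes that feed or drain the pathway were then counted in 7 lists, of which 87 genes could be tested. In PBS versus Ctrl 6 of the 87 rose and 2 fell, or 9.2% together beside 3.81% of all genes (2.14% as higher and 1.67% as lower). In FLX versus PBS none rose and 2 fell, or 2.3% beside 0.726% (0.306% and 0.42%), and in FLX versus Ctrl 2 rose and 1 fell, or 3.45% beside 3.67% (2.08% and 1.59%). Without the adjustment 28, 17 and 19 of them were under 0.05, and in FLX versus PBS DESeq2 called 2 as higher and 4 as lower, while limma with either offset called 2 as higher and 1 as lower. The median log2 fold change over the lists was -0.024 in PBS versus Ctrl and -0.059 in both FLX comparisons. With limma on log2(FPKM + 0.1), 4 rose and 4 fell in PBS versus Ctrl.

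Among the other acyl-CoA synthetases 3 of 18 tested rose and none fell in PBS versus Ctrl, where DESeq2 also called 3 and limma 1, and none passed in either FLX comparison by edgeR, with 5 and 2 under 0.05 before adjustment and 2 and 0 called by DESeq2. Acss1 was -0.74 ± 0.18 in FLX versus PBS (edgeR adjusted p = 0.0592), and with all 6 PBS mice it passed, at -0.83 (adjusted p = 0.0364). Acsf2, which also takes medium-chain acids, rose from 2.93 ± 0.864 to 6.51 ± 3.89 FPKM (log2 fold change 1.16 ± 0.29, edgeR adjusted p = 0.0312). Acss3, a mitochondrial synthetase for propionate, rose from 1.59 ± 0.246 to 2.84 ± 1.12 FPKM (0.83 ± 0.21, adjusted p = 0.0328). Acsl4, which activates long-chain polyunsaturated acids, rose from 4.98 ± 0.760 to 6.69 ± 0.815 FPKM (0.44 ± 0.10, adjusted p = 0.0227). With all 6 PBS mice Acsf2 was 1.71 (adjusted p = 0.0188) and Acsl4 0.75 (adjusted p = 0.0368). These calls were close to the threshold. Dropping 1 of Ctrl 1, 2, 4 and 5 or of PBS 1 and 5 ended the Acsf2 call, at an adjusted p of up to 0.0896. The highest PBS mouse had 13.2 FPKM of Acsf2 beside a median of 4.83, and without PBS 5 its log2 fold change was 0.76. For Acss3 the mice were Ctrl 1, 2, 4, 5 and 6 and PBS 1, 4 and 5 (up to 0.0878), and for Acsl4 they were Ctrl 2 and 5 and PBS 1 and 4 (up to 0.075).

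Among 4 tested N-acyltransferases other than Glyat and Keg1, Acnat2 rose while Gm4952, described above, fell. Acnat2, which belongs to the family of the bile acid conjugating enzyme Baat, went from 27.0 ± 6.43 FPKM in Ctrl to 55 ± 8.33 in PBS and 50.4 ± 6.60 in FLX. It rose by 1.03 ± 0.15 in PBS versus Ctrl (edgeR adjusted p = 0.000676) and by 0.82 ± 0.14 in FLX versus Ctrl (adjusted p = 0.00565), and FLX versus PBS was -0.21 ± 0.15 (adjusted p = 0.668). Acnat2 thus differed in the direction opposite to Glyat in PBS versus Ctrl, and its first call held in all 26 other settings.

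Genes that supply or break down glycine, the acceptor of the acyl group, gave 1 call up in PBS versus Ctrl out of 19 tested. Gldc, the glycine decarboxylase of the glycine cleavage system, rose from 8.01 ± 1.51 to 16.0 ± 2.26 FPKM (1.01 ± 0.16, edgeR adjusted p = 0.00143) and was also higher in FLX than in Ctrl (0.75 ± 0.15, adjusted p = 0.0137). In PBS 6 Gldc was at 84.2 FPKM, and with that mouse PBS versus Ctrl was 1.75 and the FLX versus Ctrl call was lost (adjusted p = 0.287). Slc6a19, the neutral amino acid transporter of the proximal tubule brush border, fell in FLX versus PBS from 46.3 ± 7.87 to 30.5 ± 3.94 FPKM (-0.69 ± 0.14, adjusted p = 0.0315) and in FLX versus Ctrl (-0.94 ± 0.14, adjusted p = 0.00159). Shmt1, which interconverts serine and glycine in the cytosol, fell in FLX versus PBS from 14.9 ± 0.636 to 12.1 ± 0.875 FPKM (-0.40 ± 0.068, adjusted p = 0.0116). Dropping PBS 1, 3, 4 or 5 or FLX 1, 3, 4 or 5 ended the Slc6a19 call in FLX versus PBS (up to 0.104). With FLX 1 and 2 only, Shmt1 was -0.34 (adjusted p = 0.541) and Slc6a19 -0.56 (adjusted p = 0.655) in FLX versus PBS, and in FLX versus Ctrl Slc6a19 was -0.81 (adjusted p = 0.184), Gldc 0.93 (adjusted p = 0.123) and Acnat2 1.04 (adjusted p = 0.0709).

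Of 14 genes of coenzyme A supply, Coasy, which carries out the last steps of its synthesis, fell in PBS versus Ctrl. It had 85.0 ± 9.66 FPKM in Ctrl, 57.7 ± 4.81 in PBS and 76.1 ± 10.8 in FLX, or -0.56 ± 0.11 on the log2 scale (edgeR adjusted p = 0.0102), and this call held in all 26 other settings. FLX versus PBS was 0.31 ± 0.11 (adjusted p = 0.259). Of 13 acyl-CoA thioesterases, which release the free acid again, Acot7 rose by 0.37 ± 0.094 in PBS versus Ctrl (adjusted p = 0.0347), from 6.47 ± 0.808 to 8.34 ± 0.604 FPKM. Acot7 was lost with all 6 PBS mice (0.29, adjusted p = 0.133), with upper-quartile scaling (0.32, adjusted p = 0.0711), and on dropping Ctrl 2 or 6 or PBS 1, 2, 4 or 5 (up to 0.0846).

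Neither the 10 genes of short- and medium-chain acyl-CoA oxidation nor the 9 of organic acid transport gave a call in any comparison by edgeR. Before adjustment 3, 0 and 1 of the first and 2, 1 and 3 of the second were under 0.05 in PBS versus Ctrl, FLX versus PBS and FLX versus Ctrl. DESeq2 called none of the first and 1 of the second, in FLX versus Ctrl, and limma called 1 of the first, in PBS versus Ctrl. Etfb, an electron carrier subunit of this oxidation, had 396 ± 82.2 FPKM in Ctrl, 395 ± 29.5 in PBS and 352 ± 35.2 in FLX. Acadm, the medium-chain acyl-CoA dehydrogenase that uses the products of the Acsm enzymes, had 198 ± 15.2, 170 ± 16.2 and 197 ± 28.8 FPKM. Slc22a6, the basolateral transporter that takes up hippurate and other organic anions, had 172 ± 30.5, 148 ± 7.49 and 156 ± 13.1 FPKM, and the phosphate and urate transporter Slc17a1 had 197 ± 9.48, 190 ± 19.2 and 203 ± 16.6.

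**Figure D5:**
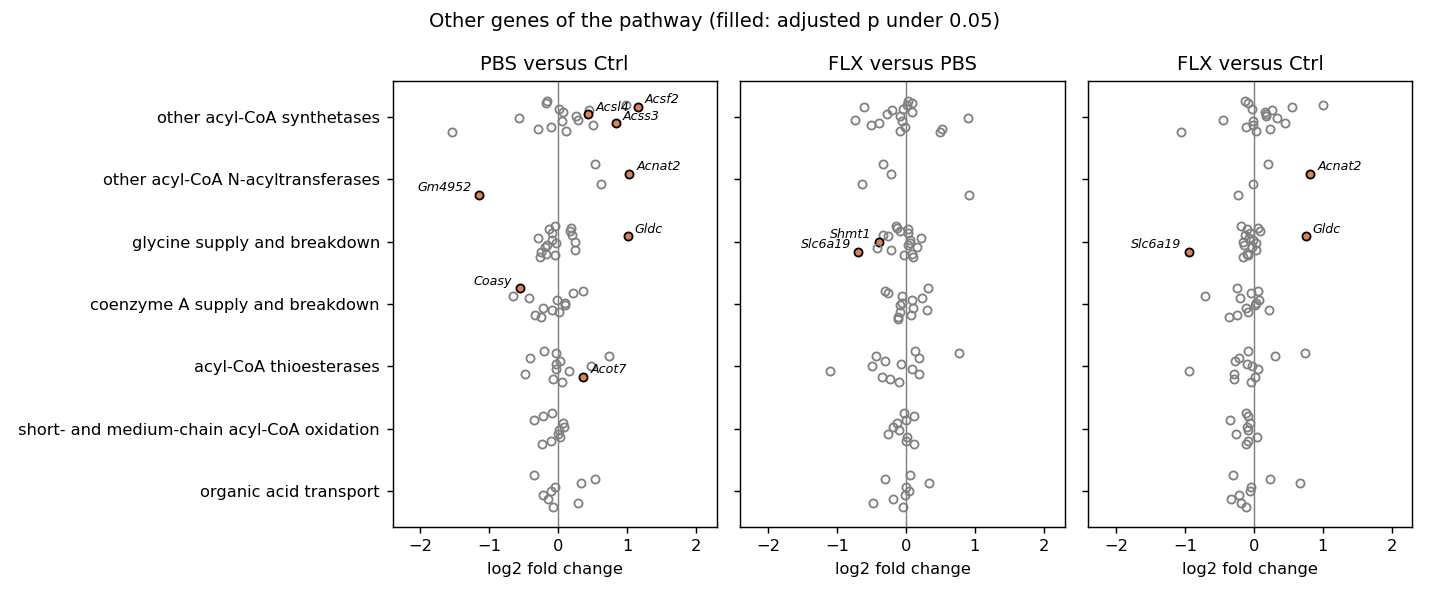
Log2 fold change (x axis) of the 87 tested genes of the 7 pathway lists (rows) in PBS versus Ctrl, FLX versus PBS and FLX versus Ctrl, with a circle for each gene. Filled circles with names passed an adjusted p under 0.05, which 8, 2 and 3 genes did.

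Markers of the cells that could hold these genes, or be mixed with them, were read in the same mice. None of the 9 proximal tubule markers passed in any comparison by edgeR, with 2 under 0.05 before adjustment in each, and DESeq2 called 2, 0 and 1 of them and limma 0, 0 and 1. The 3 markers of its straight part summed to 301 to 475 FPKM in Ctrl, 236 to 345 in PBS and 295 to 504 in FLX, and to 39.2 in PBS 6. Slc7a13, an amino acid transporter of that part, was -0.38 ± 0.15 in PBS versus Ctrl (edgeR adjusted p = 0.164) and 0.39 ± 0.15 in FLX versus PBS (adjusted p = 0.28), beside -2.02 and 1.58 for Acsm3. Atp11a was -0.31 ± 0.16 and 0.34 ± 0.16 (adjusted p = 0.32 and 0.429). Slc5a1, a glucose transporter, rose by 0.35 ± 0.089 in PBS versus Ctrl (adjusted p = 0.0329) and was -0.31 ± 0.090 in FLX versus PBS (adjusted p = 0.136). Before adjustment 2 and 3 of these 3 markers were under 0.05. DESeq2 called 1 in each of the 2 comparisons, and limma called 1 in PBS versus Ctrl and 0 in FLX versus PBS. FLX 3 and 6, the mice highest in Acsm3 within FLX, were also the highest in the summed straight tubule markers, with 455 and 504 FPKM. FLX 1 was close to FLX 3 in that sum, at 438 FPKM, but had 90.3 FPKM of Acsm3 against 180 in FLX 3. The part of the straight tubule in the Acsm3 values was not tested. Among the other lists Calb1, 1 of 3 distal tubule markers tested, rose in PBS versus Ctrl by 0.95 ± 0.17 (adjusted p = 0.00354), and the 3 summed to 126 to 173 FPKM in Ctrl, 156 to 278 in PBS and 140 to 230 in FLX. Flt1, 1 of 4 endothelial markers tested, rose in FLX versus Ctrl by 0.66 ± 0.13 (adjusted p = 0.0126), where DESeq2 and limma called 2 of the 4. The 4 summed to 18.3 to 27.5 FPKM in Ctrl, 15.8 to 28.7 in PBS and 22.6 to 34.1 in FLX. No podocyte, collecting duct or macrophage marker passed by edgeR. DESeq2 called 1 collecting duct marker in PBS versus Ctrl, and 1 podocyte and 1 macrophage marker in FLX versus Ctrl. Limma called 1 podocyte marker there with either offset, and 1 macrophage marker with the offset of 0.1 only. All 3 podocyte markers were under 0.05 before adjustment in PBS versus Ctrl. Their part in the values of the 6 genes was not tested.

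Of 4 neutrophil markers tested, 2 rose in PBS versus Ctrl and 1 fell in FLX versus PBS by edgeR. Ly6g, the defining one, was at 0 in all FLX mice and at most 0.171 FPKM in Ctrl and 0.0663 in PBS. The 5 summed to 1.27 to 3.18 FPKM in Ctrl, 6.54 to 25.4 in PBS and 0.219 to 4.76 in FLX. S100a8 rose in PBS versus Ctrl by 2.96 ± 0.68 (edgeR adjusted p = 0.0205) and fell in FLX versus PBS by 3.14 ± 0.69 (adjusted p = 0.0402). S100a9 rose in PBS versus Ctrl by 2.66 ± 0.66 (adjusted p = 0.0285) and was -2.45 ± 0.65 in FLX versus PBS (adjusted p = 0.0959). Retnlg passed in neither comparison by edgeR, at 3.69 for PBS versus Ctrl (adjusted p = 0.0691) and -2.89 for FLX versus PBS (adjusted p = 0.265). Csf3r did not pass in edgeR either, at 1.11 (adjusted p = 0.0571) and then -0.31 (adjusted p = 0.805). Before adjustment 4 and 3 of the 4 tested markers were under 0.05 in these 2 comparisons. DESeq2 called 4 and 2 of them. Limma called 3 in PBS versus Ctrl with either offset, and in FLX versus PBS 2 with the offset of 0.1 and 3 with that of 1. The part of neutrophils in the values of the 6 genes was not tested. Hepatocytes, which also carry out glycine conjugation, had marker sums of 59.0 to 103 FPKM in Ctrl, 40.0 to 78.7 in PBS and 31.9 to 49.7 in FLX. Most of this sum was Ttr, at 72.2 ± 16.1 FPKM in Ctrl, 47.5 ± 14.1 in PBS and 34.0 ± 6.05 in FLX. Ttr was the only 1 of 4 tested hepatocyte markers to pass by edgeR, and fell in FLX versus Ctrl (-1.18 ± 0.20, adjusted p = 0.00458), with -0.60 ± 0.21 in PBS versus Ctrl (adjusted p = 0.121). Fgb was 0.79 ± 0.24 in FLX versus Ctrl (adjusted p = 0.0761). Alb, the defining secreted protein of the liver, was at 1.95 ± 0.204 FPKM in Ctrl, 1.71 ± 0.702 in PBS and 2.03 ± 0.458 in FLX, and Cps1 was listed at 0 in all Ctrl and PBS mice. Their part in the values was not tested. Adrenal cortex markers summed to at most 2.04 FPKM in any of the 17 mice. Adipocyte markers reached 515 FPKM in 1 PBS mouse and 318 in 1 FLX mouse, with group medians of 4.52 in Ctrl, 34.9 in PBS and 17.9 in FLX, and their part was not tested.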

How the data were processed

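Whole right kidneys of 18 mice were read by poly(A) RNA-sequencing with 1 library a mouse. The authors deposited, for each gene and mouse, estimated counts without normalization, made by a tool and strand setting that the sources used here do not give, and FPKM values. The submitters' processing notes name cutadapt 1.9, HISAT2 2.0.4, UMI-tools, StringTie 1.3.4d, DESeq2 and edgeR, while the methods name fastp and HISAT-3N with the GRCm38 genome. The counts were all whole numbers, but in a median mouse 720 genes had a count of 4 against 484.5 with 3 and 268 with 5, which is why they were treated as estimates.

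Groups followed the labels. The counts were fitted with edgeR 4.0.16 (TMM scaling, its filter on low counts, quasi-likelihood test) in R 4.3.3, in 1 model of 3 groups and 17 mice. PBS replicate 6 was left out as described. The 20251 genes that passed the filter include all 6 genes of interest and 87 of 92 pathway genes, 90 of which were listed (Acsbg2 and Glyatl3 were not analysed here, and Acsm4, Agxt and Slc27a6 were below the filter). P-values were adjusted by Benjamini-Hochberg over all 20251, at a threshold of 0.05. A standard error is the log2 fold change divided by the root of its F value. Levels between genes are compared in FPKM. With 6, 5 and 6 mice the p-values measure the spread between mice as labelled.

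The 6 genes, the lists and the motifs were chosen with earlier results of these data known. Named pathway genes are those with a call, up to 4 a list by size, and otherwise the 2 with the highest FPKM. The 3 genes most like each of the 6 were taken by Pearson's r. Alternatives were DESeq2 1.42.0, limma 3.58.1 on log2(FPKM + 0.1) and log2(FPKM + 1), other scalings, no filter, all 6 PBS mice, 2 groups only, FLX replicates 1 and 2 only, the cut of the study, a replicate block and each mouse left out. Gene positions are those of the table, equal to GENCODE M21 for 87.6% of genes found in both. Promoters came from RefSeq and alignments from Biopython 1.88. Of 16 correlations between the deviations of same-numbered mice, 3 were over 0.1. Mice of different numbers were not compared, so an effect shared by a replicate number was not tested.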

Additional observations from a re-analysis of the deposited data

Results flagged for a closer look

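A set of 3 values stood apart from the other mice of their group, all of them in PBS replicate 6 when it was kept among the 6 PBS mice. In that mouse Acsm2 was at 174 FPKM, Glyat at 43.9 FPKM and Keg1 at 57.7 FPKM, each the lowest of its group, with a gap to the next mouse of 0.709, 0.643 and 0.663 of the group's whole range, where Dixon's critical value for 6 samples is 0.625. With 24 groups of values looked at, chance alone marks about 1 in 20. The same mouse had 1234 FPKM of summed proximal tubule markers and 6.44 FPKM of Slc7a13, against 172 to 254 in the other 5 PBS mice. It is in no group mean or test of 17 mice.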

How the results depend on the processing

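The median log2 fold change of the 6 genes kept its sign in every setting, from -0.52 to -0.30 in PBS versus Ctrl, 0.013 to 0.23 in FLX versus PBS and -0.41 to -0.28 in FLX versus Ctrl. Of 480 values of single genes of the 6, 471 moved by less than the spread between mice, 3 moved further with all 6 PBS mice (Glyat to -0.60 and Keg1 to -0.53 in PBS versus Ctrl, Acsm2 to 0.31 in FLX versus PBS) and 6 changed sign, all of them Keg1 in FLX versus PBS, at 0.0453 and 0.0451 with limma on log2(FPKM + 0.1) and log2(FPKM + 1), 0.146 with all 6 PBS mice, and 0.00751, 0.0123 and 0.0158 without PBS replicate 2, PBS replicate 4 or FLX replicate 5, in a range of -0.114 to 0.0158 over the single mice left out. Numbers of calls moved more. Genes called in PBS versus Ctrl, 772, became 1413 with DESeq2, 496 with only the 2 groups and 419 with the replicate block, and pathway genes, 8, became 13 with DESeq2, 5 without the filter or with only the 2 groups and 3 with the block. In FLX versus PBS 147 became 498 with DESeq2, 88 without the filter, 255 and 242 with limma, 95 with only the 2 groups, 0 with FLX replicates 1 and 2 only (1323 at an unadjusted p under 0.05), 67 with the block and 384 with the cut of the study, and the 2 pathway calls became 6 with DESeq2, 0 with FLX replicates 1 and 2 only, 1 with the block and 0 with the cut. In FLX versus Ctrl 744 became 1615 with DESeq2, 378 without the filter, 1214 and 1197 with limma, 354 with all 6 PBS mice, 4 with FLX replicates 1 and 2 only, 258 with the block and 454 with the cut, and the 3 pathway calls became 5 with DESeq2, 0 with FLX replicates 1 and 2 only and 1 with the cut. Leaving out 1 mouse gave 388 to 1662 calls in PBS versus Ctrl, 47 to 250 in FLX versus PBS and 271 to 3099 in FLX versus Ctrl, the highest each time without Ctrl replicate 3, with 4 to 14, 1 to 4 and 3 to 9 pathway genes. The share of calls that were higher was 56.1% in PBS versus Ctrl and 41.2% with upper-quartile scaling, 42.2% in FLX versus PBS and 75.3% with limma at 0.1, and 56.7% in FLX versus Ctrl, 80.6% with limma at 0.1 and 45.2% with upper-quartile scaling. The cause of these moves was not tested, beyond the fewer mice or genes that some settings use. Replicate numbers were taken only as names of the mice (same-number correlations ran from -0.22 to 0.29), and an effect shared by a number was not tested. FLX replicates 3 to 6 were shallower, which limits low genes such as Gm4952 more than the 6 genes, whose lowest value in any mouse was 1366 counts (Acsm3 in PBS replicate 6).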
